A study of Mus musculus with 8 samples.

Results

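The MHC class II antigen presentation genes described here are H2-Aa, H2-Ab1, H2-Eb1, H2-DMa, H2-DMb1, H2-DMb2, H2-Oa, H2-Ob, Cd74 and Ciita, 10 of the 19940 genes that were named and tested on the array. They were chosen by name, as every probe set whose annotated symbol includes one of them. The array measured them with 9 probe sets of the 28853 in the value table, since H2-DMb1 and H2-DMb2 share 1 probe set and cannot be told apart. The study hybridised RNA from C57BL/6 mouse cells to 8 Affymetrix arrays in 4 groups. The groups carried full-length NUP98-HOXA9, its deletion mutant delFG1, its deletion mutant delFG2, or an empty vector, with 2 arrays each, numbered 1 and 2 in the labels. NUP98-HOXA9 is a leukaemia fusion of the nucleoporin NUP98, through its part rich in phenylalanine-glycine repeats, with the homeodomain protein HOXA9. The study asked which genes the NUP98 part of the fusion regulates. The sources used here do not give what each deletion removes, which kind of cell was used, or whether the 2 arrays of each group stand for separate cultures. The p-values below therefore reflect only how far these samples lie apart, a spread that may be technical. The deposited values are intensities, with array medians of 80.7 to 83.2, and levels are given as log2(intensity + 1).

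MHC class II molecules are pairs of an alpha and a beta chain that show peptides from endocytosed proteins to CD4+ T cells. They assemble on the invariant chain, Cd74, whose remnant in the groove is exchanged for other peptides with the help of the H2-DM heterodimer, and H2-O restrains H2-DM. Dendritic cells, B cells and macrophages are the main cells that carry class II, and its transcription depends on the coactivator Ciita, which acts through factors bound to the X and Y boxes of the class II promoters.

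Promoter windows of 300 bases (250 before and 50 from the annotated start, RefSeq, mouse build GRCm38.p6) were found for 7 of the 10 genes. H2-Ab1, Cd74 and Ciita are named only. The 4 windows printed below belong to the gene with the largest difference between the fusion and the empty vector (H2-Ob), to the partner chain of its protein (H2-Oa), to the gene whose levels followed H2-Ob most closely (H2-DMa), and to a classical alpha chain (H2-Aa). All are read 5′ to 3′ on the gene's strand. Capitals mark the X box searched as CCNNGNNAC and the Y box core searched as ATTGG, on either strand, so that a match on the opposite strand appears as its reverse complement. H2-Ob lies at chr17:34238655-34238954 on the plus strand, H2-Oa at chr17:34092129-34092428 on the plus strand, H2-DMa at chr17:34122582-34122881 on the plus strand for the first of its 2 annotated starts, and H2-Aa at chr17:34287774-34288073 on the minus strand.
H2-Ob: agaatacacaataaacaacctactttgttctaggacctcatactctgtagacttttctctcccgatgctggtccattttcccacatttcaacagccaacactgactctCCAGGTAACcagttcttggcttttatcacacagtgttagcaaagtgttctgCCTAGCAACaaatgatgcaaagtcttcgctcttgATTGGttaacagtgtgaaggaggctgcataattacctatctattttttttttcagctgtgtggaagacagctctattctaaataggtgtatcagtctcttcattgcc
H2-Oa: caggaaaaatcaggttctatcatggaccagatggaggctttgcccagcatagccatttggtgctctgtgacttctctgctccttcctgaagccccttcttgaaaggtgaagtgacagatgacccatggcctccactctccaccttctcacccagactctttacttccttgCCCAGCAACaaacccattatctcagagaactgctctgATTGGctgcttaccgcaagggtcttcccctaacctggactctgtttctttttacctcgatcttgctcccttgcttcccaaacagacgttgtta
H2-DMa: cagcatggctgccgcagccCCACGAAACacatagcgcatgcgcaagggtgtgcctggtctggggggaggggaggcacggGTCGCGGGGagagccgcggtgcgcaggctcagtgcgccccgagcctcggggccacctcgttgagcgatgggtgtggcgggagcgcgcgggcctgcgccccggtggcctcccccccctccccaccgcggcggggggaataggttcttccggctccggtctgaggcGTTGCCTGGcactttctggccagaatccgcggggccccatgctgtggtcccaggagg
H2-Aa: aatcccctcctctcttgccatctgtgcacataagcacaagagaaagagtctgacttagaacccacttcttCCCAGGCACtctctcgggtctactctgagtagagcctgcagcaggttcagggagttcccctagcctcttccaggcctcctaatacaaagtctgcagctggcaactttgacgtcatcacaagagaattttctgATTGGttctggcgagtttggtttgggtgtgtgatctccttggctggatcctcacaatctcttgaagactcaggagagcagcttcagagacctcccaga

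Both motifs are short and common. Of 32851 windows of this length, 47.4% held the X box and 37.4% the Y box core. Among the class II genes 6 of 7 had an X box and 7 of 7 a Y box core in a window, and none of these matches overlapped. An X box followed on the gene's strand by a Y box core, with starts 30 to 40 bases apart, was present in 93 windows (0.283%). H2-Ob, with a distance of 34 bases, and H2-Oa and H2-DMb1, with 37 bases each, were among them; that spacing was chosen after the matches had been seen. The interferon-gamma activated site, searched as TTCNNNGAA, was in 8.3% of all windows and in 1 class II gene, H2-DMb2, at 1 palindromic position. A match is only a run of letters, and its absence says only that these letters are not in the window.

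**Figure D1:**
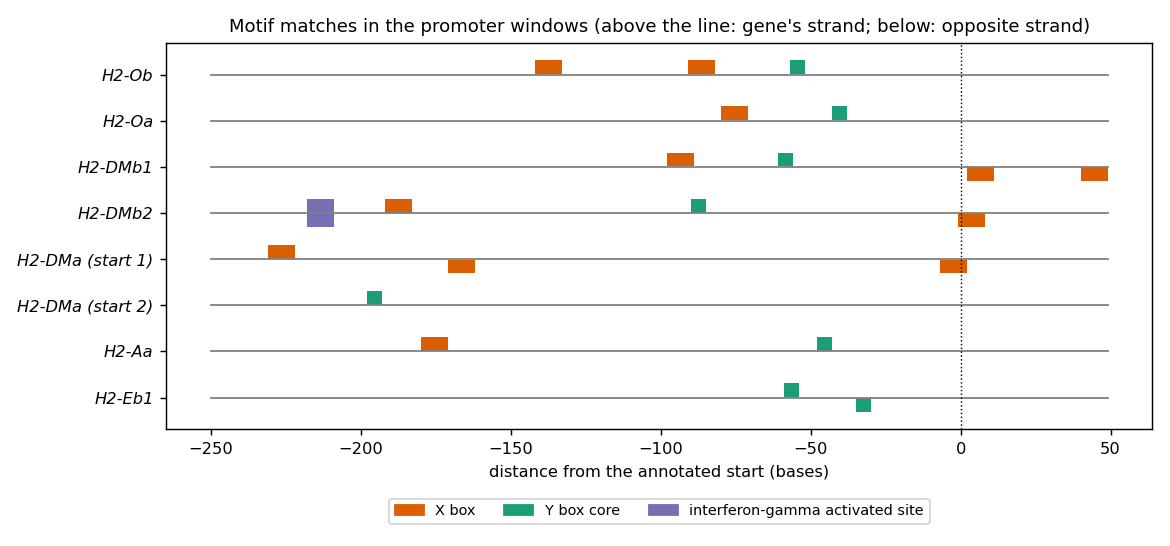
Positions of the X box, the Y box core and the interferon-gamma activated site in the promoter windows of 7 class II genes; the x axis is the distance from the annotated start in bases, and each line is 1 window. Boxes above a line lie on the gene's strand and boxes below it on the opposite strand. In H2-Ob, H2-Oa and H2-DMb1 an X box precedes a Y box core by 34 to 37 bases.

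In cells with full-length NUP98-HOXA9, 3 class II probe sets were higher than in cells with the empty vector once the number in the labels was taken into account. H2-Ob rose 3.09-fold, H2-Ab1 1.67-fold and H2-DMa 1.53-fold. H2-Aa, H2-Eb1, Cd74, H2-DMb1/H2-DMb2, H2-Oa and Ciita did not pass. Of the 9 probe sets, 8 had a higher mean in full-length cells, the median log2 difference was 0.49, and it was 0.02 over all 21790 tested probe sets. The test was limma with Benjamini-Hochberg adjustment over all of these and a threshold of 0.05. In the fit of the 4 group means alone, 0 of 9 passed (4 had an unadjusted p under 0.05), where 0.124% of all probe sets passed. With the number as a block, 3 of 9 passed (7 had an unadjusted p under 0.05), where 6.61% of all did. Both full-length arrays lay above both empty-vector arrays in 7 of the 9, against 23.4% of all probe sets.

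H2-Ob encodes the beta chain of H2-O. Its log2 level was 8.55 and 7.93 in full-length cells, 8.54 and 7.75 in delFG1 cells, 8.09 and 7.21 in delFG2 cells, and 6.53 and 6.70 in empty-vector cells. Every array with a form of the fusion lay above both empty-vector arrays, while the full-length, delFG1 and delFG2 arrays overlapped one another. On the intensity scale this was 375 and 243 in full-length cells against 91.4 and 103 in empty-vector cells. The log2 difference between full-length and empty-vector cells was 1.63 (SE 0.34), with a limma adjusted p of 0.167 without the block and 0.000857 with it. For the arrays numbered 1 it was 2.02, and for those numbered 2 it was 1.23. H2-Oa, the alpha chain that pairs with it and whose window holds the same pair of motifs at nearly the same distance, stood at 8.47 and 8.52 in full-length cells, 8.39 and 8.33 in delFG1 cells, 8.50 and 8.26 in delFG2 cells, and 8.19 and 8.38 in empty-vector cells. All 8 H2-Oa values thus lay within 0.33 log2 units. The difference of 0.21 (SE 0.12) between full-length and empty-vector cells did not pass (limma adjusted p = 0.667, and 0.362 with the block; 95% interval with the block -0.03 to 0.46).

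H2-DMa, the alpha chain of the peptide exchanger H2-DM, followed the order of H2-Ob. It measured 10.42 and 10.31 in full-length cells, 10.46 and 10.18 in delFG1 cells, 10.22 and 9.99 in delFG2 cells, and 9.72 and 9.78 in empty-vector cells. All 6 arrays with a form of the fusion were above both empty-vector arrays, and the 3 fusion groups overlapped except that both delFG2 arrays were below both full-length arrays. The full-length cells exceeded the empty-vector cells by 0.62 (SE 0.13; limma adjusted p = 0.156 without the block and 0.0022 with it), with 0.70 for the arrays numbered 1 and 0.53 for those numbered 2. The probe set of the beta chains H2-DMb1 and H2-DMb2 read 8.32 and 8.14 in full-length cells, 8.08 and 8.06 in delFG1 cells, 8.19 and 7.98 in delFG2 cells, and 7.93 and 7.99 in empty-vector cells. Its full-length arrays were higher than its empty-vector arrays by 0.27 on average, which did not pass (limma adjusted p = 0.536, and 0.184 with the block).

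The classical chains and the invariant chain were highest in the first full-length array, and their mutant arrays did not all lie above the empty vector. H2-Ab1, the I-A beta chain, was at 10.68 and 9.84 in full-length cells, 10.16 and 9.61 in delFG1 cells, 9.81 and 9.53 in delFG2 cells, and 9.41 and 9.63 in empty-vector cells. Both full-length arrays were above both empty-vector arrays, and the mutants overlapped the empty vector. Full-length exceeded empty vector by 0.74 (SE 0.27; limma adjusted p = 0.426 without the block and 0.0353 with it), made up of 1.27 for the arrays numbered 1 and 0.21 for those numbered 2.

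H2-Aa, the I-A alpha chain, was at 10.30 and 9.46 in full-length cells, 9.54 and 9.03 in delFG1 cells, 9.36 and 9.22 in delFG2 cells, and 9.23 and 9.36 in empty-vector cells. Only the first full-length array was far from the others. H2-Eb1, the I-E beta chain, was at 9.54 and 8.92 in full-length cells, 9.05 and 8.48 in delFG1 cells, 8.67 and 8.69 in delFG2 cells, and 8.80 and 8.68 in empty-vector cells. Cd74 was at 11.26 and 10.71 in full-length cells, 10.75 and 10.35 in delFG1 cells, 10.53 and 10.46 in delFG2 cells, and 10.63 and 10.75 in empty-vector cells, so that its second full-length array lay between the empty-vector arrays. The full-length minus empty-vector differences were 0.59 for H2-Aa, 0.49 for H2-Eb1 and 0.30 for Cd74, and none passed (limma adjusted p = 0.522, 0.541 and 0.683 without the block, and 0.0799, 0.0748 and 0.248 with it). Between the arrays numbered 1 they were 1.07, 0.75 and 0.63, and between those numbered 2 they were 0.10, 0.24 and -0.04.

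Ciita, the coactivator itself, had no group that stood apart. Its intensity was between 62.0 and 74.6 in all 8 arrays, below every array's median, and the table holds no background values that would say whether it was detected. The log2 level was 6.17 and 5.99 in full-length cells, 5.98 and 6.14 in delFG1 cells, 5.98 and 6.03 in delFG2 cells, and 6.24 and 6.00 in empty-vector cells. The full-length minus empty-vector difference was -0.04 (95% interval with the block -0.29 to 0.21).

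**Figure D2:**
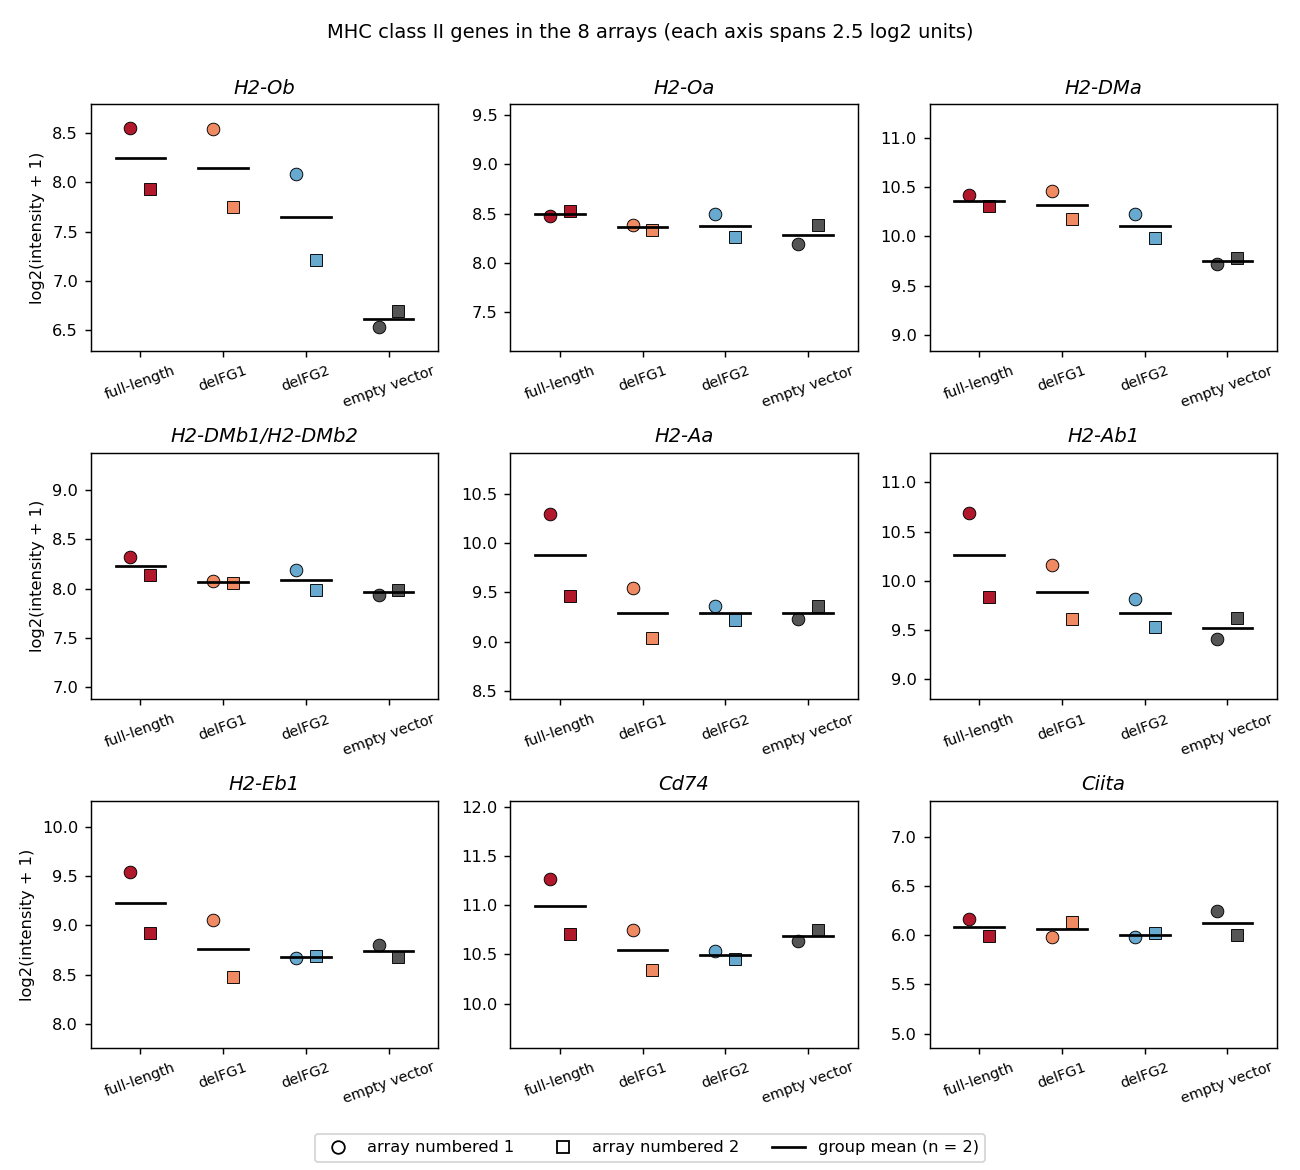
Log2(intensity + 1) of the 9 class II probe sets (y axis, with the same log2 span in every panel) in the full-length, delFG1, delFG2 and empty-vector arrays (x axis). Circles are arrays numbered 1, squares arrays numbered 2, and the bar is the mean of the 2 arrays. H2-Ob and H2-DMa are above the empty vector in all 6 arrays with a form of the fusion, and H2-Aa, H2-Ab1, H2-Eb1 and Cd74 are highest in the first full-length array.

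Several of these values depended on the first full-length array. Without it, and with the block, H2-Ob was higher in full-length than in empty-vector cells by 1.57 and H2-DMa by 0.63. The differences were 0.42 for H2-Ab1, 0.30 for H2-Eb1, 0.25 for H2-Aa and 0.08 for Cd74. The calls of H2-DMa and H2-Ab1 were lost, and fewer passed over all probe sets too. The call of H2-DMa was also lost without the second full-length array (limma adjusted p = 0.0596). That of H2-Ab1 was lost without the first empty-vector array (0.208) or without the first or second delFG2 array (0.0731 and 0.0724). Without the second empty-vector array and with the block, the differences were 2.10 for H2-Ob, 1.13 for H2-Ab1 and 0.90 for H2-Aa. They were 0.75 for H2-DMa, 0.63 for H2-Eb1 and 0.53 for Cd74. More probe sets then passed, over all probe sets as well as among the 9.

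Some dendritic cell markers were also highest in the first full-length array. With the block, 3 of 12 were higher in full-length than in empty-vector cells and 0 were lower. Of all 21790 tested probe sets, 475 were higher and 965 lower in that fit. Without the block 0 of 12 passed. Ccl22, a chemokine of mature dendritic cells and macrophages, was at 9.19 and 7.50 in full-length cells against 7.24 and 6.65 in empty-vector cells (log2 difference 1.40, limma adjusted p = 0.449 without the block and 0.00245 with it). Ccr7, the receptor that guides mature dendritic cells to lymph nodes, was at 8.58 and 7.10 in full-length cells and at 6.81 and 6.78 in empty-vector cells (1.05, limma adjusted p = 0.0381 with the block). Clec10a, a lectin of dendritic cells and macrophages, was at 7.37 and 7.22 in full-length cells against 6.49 and 6.72 in empty-vector cells (0.69, 0.0168). Without the first full-length array and with the block, fewer of the 12 passed, as over all probe sets. The differences were 0.95 for Ccl22, 0.67 for Clec10a and 0.41 for Ccr7. Ccl22 was higher in the array numbered 1 than in that numbered 2 in all 4 groups. The summed intensity of the 12 markers was 1208 to 2124 in full-length cells, 1069 to 1374 in delFG1 cells, 1029 to 1251 in delFG2 cells, and 1120 to 1248 in empty-vector cells. Of the subset markers on the list, Clec9a reached 5.11, Xcr1 5.58, Siglech 5.85 and Zbtb46 6.34. These lay below the median log2 level of all tested probe sets, 6.73. Itgax, on the same list, lay above that median, at 8.18 to 8.95 over all arrays. It differed by -0.07 between full-length and empty-vector cells. The part of dendritic cells in the class II levels was not tested, and in bulk RNA fewer cells of a type and less RNA per cell cannot be told apart.

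Markers of B cells, macrophages and other blood cells were counted in the same way. Of 9 measured B cell markers, Blnk alone passed with the block, lower in full-length than in empty-vector cells (-0.43, limma adjusted p = 0.0215), and Cd79a (4.86 to 5.09) and Ebf1 (4.97 to 5.13) stayed within a narrow range in all 8 arrays. Cd79b, a chain of the B cell receptor complex, was at 9.22 and 9.47 in full-length cells against 8.99 and 9.15 in empty-vector cells (0.28, limma adjusted p = 0.123 with the block), and passed with the block between delFG1 and empty-vector cells (0.37, 0.0431). The summed intensity of the 9, most of it from Cd79b, was 897 to 1003 in full-length and 820 to 877 in empty-vector cells. Of 8 macrophage and monocyte markers, 5 fell and 1 rose with the block in full-length cells, where 965 of all 21790 probe sets fell and 475 rose. The mannose receptor Mrc1 differed by -1.15 (limma adjusted p = 0.000214), the lysosomal protein Cd68 by -0.49 (0.000382) and the efferocytosis receptor Mertk by -1.002 (0.00197), while the monocyte chemokine receptor Ccr2 differed by 1.10 (0.00201). Their summed intensity was 8790 to 9926 in full-length cells against 10995 to 14126 in empty-vector cells. Of 8 mast cell markers 1 rose and 3 fell, among them Fcer1a (-1.31, 0.000172), and of 9 neutrophil markers 3 fell, Camp (-0.58, 0.0032), Ltf (-0.75, 0.00393) and S100a9 (-0.22, 0.0159). Without the block, 0 markers of these 4 lists passed. Without the first full-length array and with the block, fewer markers of each of these lists passed, as over all probe sets. Blnk then differed by -0.47, Mrc1 by -1.01, Ccr2 by 0.996, Fcer1a by -1.18 and Ltf by -0.61. The part of a changed mix of cells in the class II levels was not tested.

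Genes that process antigen or turn class II over were lower in fusion than in empty-vector cells where they passed. Of 15 proteases and partners that process antigen or turn class II over, 8 fell in full-length against empty-vector cells with the block and 0 rose. Of all 21790 probe sets 965 fell and 475 rose. The 8 were not all proteases, and Marchf1 (-0.48), Cd82 (-0.36) and Cd9 (-0.69) were among them. The median log2 difference of the 15 was -0.36. Cathepsin S, which trims the invariant chain, was lowest relative to the empty vector. Ctss stood at 9.61 and 9.81 in full-length cells against 10.28 and 10.78 in empty-vector cells, a difference of -0.82 (limma adjusted p = 0.228 without the block and 0.000249 with it). The lysosomal proteases Ctsd (-0.43, 0.000249) and Ctsb (-0.44, 0.000583) were among the others that passed with the block. Without the first full-length array and with the block, fewer of the 15 passed, as over all probe sets. Ctss then differed by -0.92, Ctsd by -0.44 and Ctsb by -0.45. In delFG1 against empty-vector cells 8 of 15 fell as well with the block, where 911 of all probe sets fell and 422 rose. Ctsb differed by -0.47 (limma adjusted p = 0.000359) and Ctss by -0.76 (0.000385). In delFG2 against empty-vector cells Ctsb alone passed (-0.28, 0.0437). Of the 15, Ctsd (0.24, limma adjusted p = 0.0431) and the tetraspanin Cd9 (0.50, 0.0333) were higher in delFG2 than in full-length cells with the block. None of the 15 passed without the block in any of these comparisons.

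The factors that read the X and Y boxes did not pass in any comparison. None of the 7 genes for the RFX complex, NF-Y and Creb1 was called by limma with or without the block, and 0 of 7 had an unadjusted p under 0.05 between full-length and empty-vector cells. Of 10 measured genes between interferon gamma and Ciita, Spi1, which encodes the myeloid factor PU.1, was lower in full-length than in empty-vector cells with the block (-0.24, limma adjusted p = 0.0258, and 0.258 without the first full-length array), and the receptor chain Ifngr1 was higher in delFG1 than in empty-vector cells (0.31, 0.0227). The 2 other class II loci on the array, H2-Ea and H2-Eb2, had 0 calls in any comparison. H2-Ea, the I-E alpha chain that the C57BL/6 haplotype does not express, lay between 4.92 and 5.44 in all arrays. H2-Eb2 was at 6.05 in the first full-length array and at 5.16 to 5.37 in the other 7, so it too was highest in that array.

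Class I presentation genes, several of which lie within the class II region, were set beside them. H2-K1, H2-D1 and H2-T23 were on the list but had no tested probe set, so these class I chains are not included. Of 15 measured, 3 rose with the block in full-length against empty-vector cells and 0 fell. Of all 21790 probe sets 475 rose and 965 fell. The immunoproteasome subunits Psmb8 and Psmb9 were higher by 0.52 (limma adjusted p = 0.00793) and 0.53 (0.0335), and the peptide editor Tapbpl by 0.50 (0.0166). The median log2 difference over the 15 was 0.17. In delFG1 against empty-vector cells 4 rose, these 3 and the peptide transporter subunit Tap2 (0.51, 0.0321), where 422 of all probe sets rose and 911 fell. In delFG2 against empty-vector cells 0 of 15 passed. Without the first full-length array and with the block, fewer of the 15 passed between full-length and empty-vector cells, as over all probe sets. Psmb8 then differed by 0.49, Psmb9 by 0.56 and Tapbpl by 0.63. Of 6 costimulation genes, Cd274, the ligand PD-L1, was lower in full-length than in empty-vector cells with the block (-0.50, limma adjusted p = 0.00558) and lower in delFG1 than in empty-vector cells (-0.69, 0.000834). Without the block, limma called 0 of the 15 class I and 0 of the 6 costimulation genes in any of these comparisons (4 and 2 had an unadjusted p under 0.05 between full-length and empty-vector cells).

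**Figure D3:**
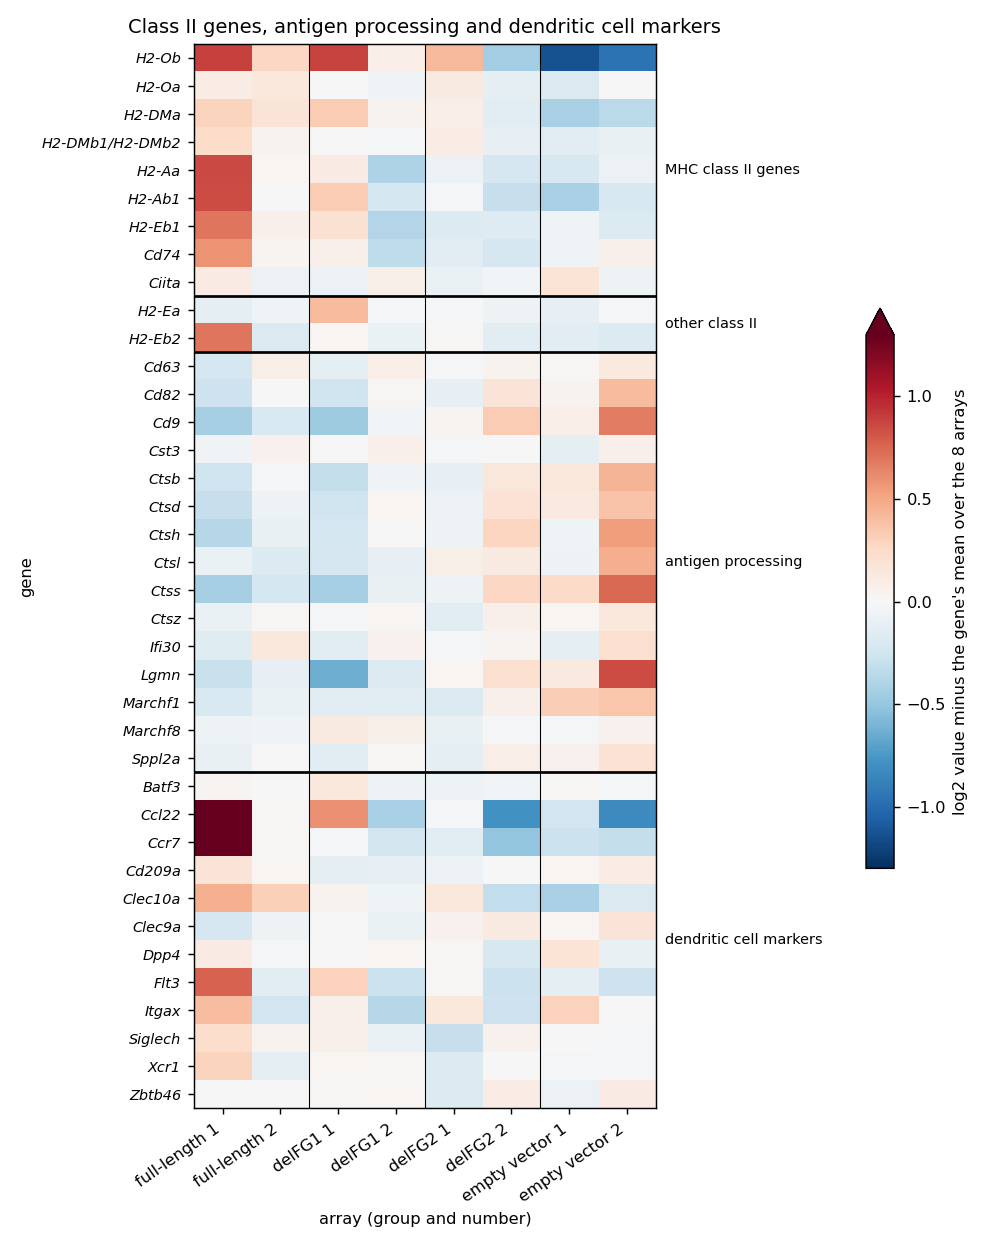
Log2 value minus the gene's mean over the 8 arrays (colour; values above the scale take its darkest red) for the class II probe sets, the other class II loci, the antigen processing genes and the dendritic cell markers (y axis) in each array (x axis). Red is above and blue below the gene's mean. The first full-length array is the reddest for H2-Aa, H2-Ab1, H2-Eb1, Cd74, H2-Eb2, Ccl22, Ccr7 and Flt3, while Ctss is below its mean in both full-length and both delFG1 arrays and above it in both empty-vector arrays.

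The comparison of delFG1 with full-length cells asked whether the deletion changed these levels. All 9 differences were below 0, from -0.02 for Ciita to -0.59 for H2-Aa, with a median of -0.16 against 0.00151 over all probe sets. limma called 0 of 9 without the block (2 had an unadjusted p under 0.05) and 0 of 9 with it (3 had). Of all probe sets 0.00918% passed without the block and 0.078% with it. H2-Ob differed by -0.10 (95% interval with the block -0.55 to 0.35) and H2-DMa by -0.04 (-0.24 to 0.15), while H2-Aa differed by -0.59 (-0.98 to -0.20), H2-Eb1 by -0.47 (-0.79 to -0.15), Cd74 by -0.44 (-0.72 to -0.15) and H2-Ab1 by -0.38 (-0.78 to 0.03). The intervals are not adjusted for the number of probe sets tested. Both delFG1 arrays lay below both full-length arrays for H2-Oa (-0.14) and H2-DMb1/H2-DMb2 (-0.16) only, 2 of 9, where 12.4% of all probe sets did so. Without the first full-length array and with the block, H2-Aa differed by -0.26, H2-Eb1 by -0.27, Cd74 by -0.22 and H2-Ab1 by -0.06, again with 0 of 9 called; without the block H2-Aa differed by -0.17 and H2-Ab1 by 0.05.

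In delFG2 cells all 9 probe sets were again on average below full-length cells, with a median of -0.49 against -0.00541 over all probe sets. H2-Ob differed by -0.59 (SE 0.34), H2-Ab1 by -0.59 (SE 0.27), H2-Aa by -0.59 (SE 0.26), H2-Eb1 by -0.55 (SE 0.23), Cd74 by -0.49 (SE 0.18) and H2-DMa by -0.26 (SE 0.13). The remaining differences were -0.14 for H2-DMb1/H2-DMb2, -0.12 for H2-Oa and -0.08 for Ciita. limma called 0 of 9 without the block (3 had an unadjusted p under 0.05), where 0.0275% of all probe sets passed, and 0 of 9 with it (6 had), where 0.468% passed; the lowest adjusted p with the block was 0.197, for H2-Eb1 and Cd74. Both delFG2 arrays lay below both full-length arrays for H2-DMa, H2-Aa, H2-Ab1, H2-Eb1 and Cd74, 5 of 9, where 14.1% of all probe sets did. With the block and without the first or the second empty-vector array, the differences stayed the same. This was fixed in advance, since those arrays enter only the estimate of the spread. More probe sets then passed, over all probe sets as well as among the 9. Without the first full-length array and with the block, the differences were -0.53 for H2-Ob, -0.35 for H2-Eb1, -0.28 for Cd74, -0.27 for H2-Ab1 and -0.25 for H2-Aa. The dendritic marker Ccl22 was lower too, at 7.45 and 6.70 in delFG2 cells against 9.19 and 7.50 in full-length cells (-1.27, limma adjusted p = 0.0256 with the block, and 0.22 without the first full-length array), the 1 of 12 such markers that passed. Its part in the class II differences was not tested.

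**Figure D4:**
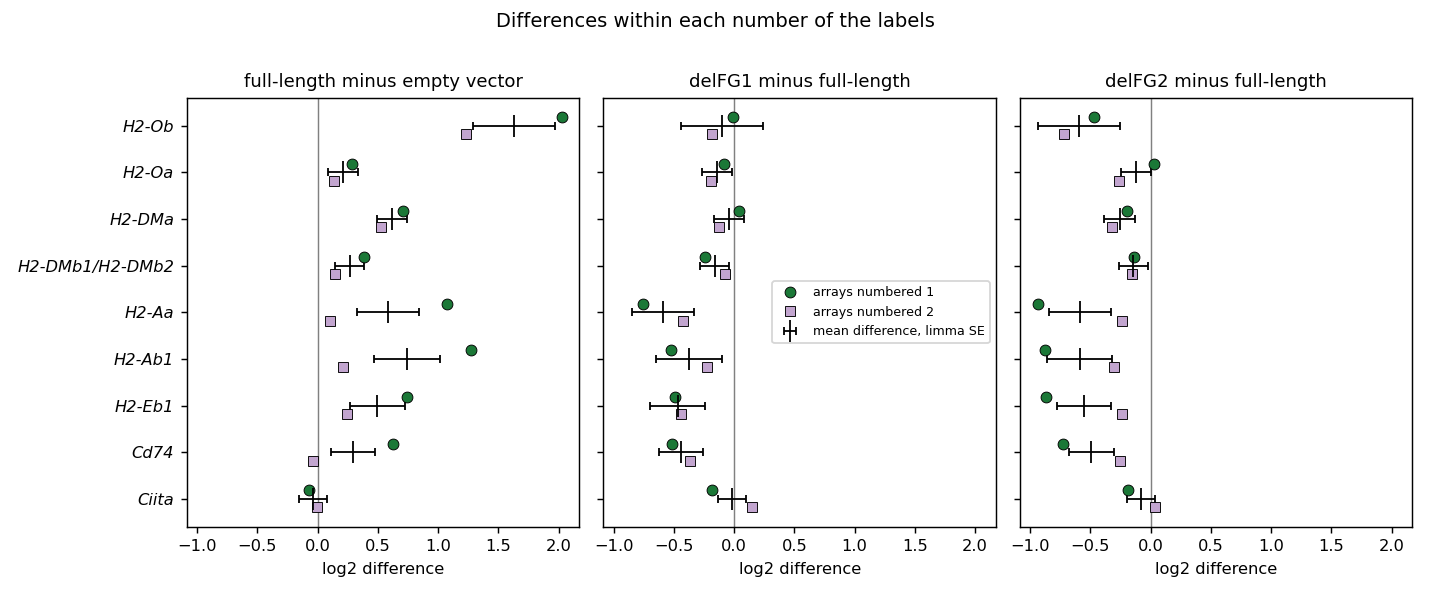
Log2 difference (x axis) of each class II probe set (y axis) for full-length minus empty vector, delFG1 minus full-length and delFG2 minus full-length. Circles are differences between the arrays numbered 1, squares those between the arrays numbered 2, and the tick with whiskers is their mean with the limma standard error without the block. H2-Aa, H2-Ab1 and Cd74 differ by 0.63 to 1.27 between full-length and empty vector in the arrays numbered 1 and by -0.04 to 0.21 in those numbered 2.

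Each mutant was also set against the empty vector, with the empty-vector arrays shared with the full-length comparison. In delFG1 cells limma called 0 of 9 without the block (2 had an unadjusted p under 0.05), where 0.128% of all probe sets passed, and 2 of 9 with it, where 6.12% did. H2-Ob was higher in delFG1 than in empty-vector cells by 1.53 (SE 0.34; limma adjusted p = 0.174 without the block and 0.00116 with it) and H2-DMa by 0.57 (SE 0.13; 0.172 and 0.00294). The classical chains did not pass: H2-Ab1 differed by 0.36, H2-Eb1 by 0.03 and H2-Aa by -0.0042, and Cd74 differed by -0.14. Both delFG1 arrays lay above both empty-vector arrays in 3 of 9 (H2-Ob, H2-DMa and H2-DMb1/H2-DMb2), where 24.6% of all probe sets did. The H2-DMa call was lost without the first delFG1 array, where fewer passed over all probe sets too. Without the second empty-vector array and with the block, more probe sets passed, over all probe sets as well as among the 9.

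In delFG2 cells H2-Ob was above the empty vector by 1.04 (SE 0.34) and H2-DMa by 0.36 (SE 0.13), but neither passed (limma adjusted p = 1 for both without the block, and 0.0571 and 0.12 with it). limma thus called 0 of 9 in either fit, with 2 of 9 at an unadjusted p under 0.05 in each; of all probe sets 0.00459% passed without the block and 0.505% with it. Those were the 2 of 9 in which both delFG2 arrays were above both empty-vector arrays, where 16.3% of all probe sets were. H2-Aa differed by 0.00028, H2-Ab1 by 0.15, H2-Eb1 by -0.06 and Cd74 by -0.20, with both delFG2 arrays of Cd74 below both empty-vector arrays. Without the second empty-vector array and with the block 3 of 9 passed (H2-Ob, H2-DMa and H2-Ab1), and H2-Ob passed without either delFG1 array.

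Between the mutants, delFG2 cells differed from delFG1 cells in H2-Ob by -0.50 on the log2 scale (95% interval with the block -0.94 to -0.05) and in H2-DMa by -0.21 (-0.41 to -0.02). Neither passed (limma adjusted p = 1 for both without the block, and 0.55 and 0.561 with it). The other 7 differences lay between -0.21 for H2-Ab1 and 0.02 for H2-Oa. limma called 0 of 9 without the block (0 had an unadjusted p under 0.05), where 0% of all probe sets passed, and 0 of 9 with it (2 had), where 0.537% did. In 0 of 9 were both delFG2 arrays below both delFG1 arrays, against 15.3% of all probe sets. More probe sets passed with the block when either empty-vector array was left out, over all probe sets as well as among the 9.

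What the number in the labels stands for is not stated. The arrays numbered 2 were on average below those numbered 1 for 9 of 9 probe sets, and in 25 of 36 pairs of arrays from 1 group. Of the 9, only H2-Ob passed for the number itself (-0.53, limma adjusted p = 0.0372), a share near the 11.2% of all probe sets that did. For H2-Ob the second array minus the first was -0.62 in full-length, -0.80 in delFG1, -0.87 in delFG2 and 0.17 in empty-vector cells. For H2-Aa the same values were -0.84 in full-length, -0.51 in delFG1, -0.14 in delFG2 and 0.13 in empty-vector cells.

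Across the 8 arrays, which share group and number, the class II genes did not all share 1 profile. H2-Ob and H2-DMa had a Pearson r of 0.99. H2-Aa had an r of 0.96 with H2-Eb1, 0.96 with Cd74 and 0.93 with H2-Ab1. H2-Ob and Cd74 had an r of 0.39. Against the mean profile of the others, r was highest for H2-Ab1 (0.97) and lowest for Ciita (-0.09). Among 518 other genes with a log2 range of at least 1, those most like the common profile of the 9 probe sets were Crisp3 (r = 0.95), Scd1 (0.93), Adamts6 (0.92), Rab38 (0.91) and Btla (0.90). Crisp3 measured 6.29 and 5.19 in full-length cells, 4.97 and 4.61 in delFG1 cells, 4.58 and 4.53 in delFG2 cells, and 4.47 and 4.58 in empty-vector cells, and so was highest in the first full-length array as well. These correlations are descriptions over 8 arrays and carry no test.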

How the data were processed

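Fragmented DNA made from total RNA carried a biotin label from a whole-transcript terminal kit, per the labels' protocols. The deposited file gives linear intensity for 28853 probe sets and 8 arrays; the sources used here do not give its background correction, summary or normalisation. Sorted log2 values of each array differed from their mean by at most 0.03 to 0.07, so no further normalisation was applied. The table gives no detection calls, so whether faint probe sets were detected is not known. Precision was limited by the 2 arrays in each group.

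Values were analysed as log2(intensity + 1). Genes were named from the platform annotation; 21790 probe sets were tested, namely those with 1 symbol and the shared H2-DMb1/H2-DMb2 probe set, while 1620 others with several symbols and 5443 with none were not. limma 3.58.1 in R 4.3.3 (lmFit, then eBayes with an intensity trend) was fitted to all 8 arrays with 4 group means, with 4 residual and 4.62 prior degrees of freedom, two-sided, with Benjamini-Hochberg adjustment over the tested probe sets separately for the 6 comparisons. This fit was tested on simulated data drawn without an effect of the number in the labels, so that test does not cover the calls made with the block. A second fit added the number in the labels as a block (3 residual and 7.78 prior degrees of freedom). Across probe sets, arrays of 1 number deviated from their groups together (r of 0.401 to 0.640 in the 6 pairs of groups), so the numbers were taken to pair the arrays, and blocked values are given where they change a call. The alternatives were median centring, quantile normalisation, a pseudocount of 32, only the brighter probe sets (10895), no intensity trend, all probe sets, and each array left out.

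The members, the lists (enhanceosome, interferon gamma to Ciita, antigen processing, other class II, class I, costimulation, and dendritic, B, macrophage, mast and neutrophil markers) and the tests were chosen with earlier results of these data known. Named were the 10 members, up to 3 genes per list and comparison with the smallest p with the block, and the 5 genes most like the members' common profile; other genes were named after their values were seen. A gene with several probe sets is given by the brightest. Promoter sequences come from RefSeq (GRCm38.p6).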

Additional observations from a re-analysis of the deposited data

How the results depend on the processing

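With the replicate block, the number of class II probe sets past the limma threshold was 3 in place of 0 between full-length and empty-vector cells (H2-Ob, H2-DMa and H2-Ab1) and 2 in place of 0 between delFG1 and empty-vector cells (H2-Ob and H2-DMa); the block changed no other call of a class II probe set. Median centring, quantile normalisation, a pseudocount of 32, no intensity trend, all probe sets and the brighter probe sets left every count of calls at 0. These settings were fitted without the block only, so they do not show whether the calls made with it depend on them. With the brighter probe sets alone, the median difference between delFG1 and full-length cells was -0.27. Differences of H2-Aa close to 0 changed sign: 0.0085 between delFG1 and empty vector after quantile normalisation, and -0.0083 between delFG2 and empty vector and -0.0001009 between delFG2 and delFG1 after median centring.

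Leaving out each array in turn, with or without the block, gave 0 to 6 calls between full-length and empty vector, 0 to 4 between delFG2 and full-length, 0 to 3 between delFG1 and empty vector, 0 to 3 between delFG2 and empty vector, and 0 to 1 between delFG2 and delFG1. The median ranged from 0.18 to 0.67 between full-length and empty vector, from -0.022 to 0.25 between delFG1 and empty vector, from -0.046 to 0.23 between delFG2 and empty vector, from -0.50 to -0.069 between delFG1 and full-length, from -0.77 to -0.16 between delFG2 and full-length, and from -0.25 to 0.048 between delFG2 and delFG1. In each comparison with any class II call, the highest count of calls came from the fits in which the most probe sets passed over all probe sets. The counts of class II calls therefore cannot be read apart from the number passing over all probe sets. A group left with 1 array is assumed to vary like the others. The sign of 26 of the 54 differences changed with the array left out. Between full-length and empty vector this was Ciita (-0.16 to 0.084). Between delFG1 and full-length it was H2-Ob (-0.50 to 0.30), H2-DMa (-0.18 to 0.096), H2-Ab1 (-0.80 to 0.047) and Ciita (-0.16 to 0.12). Between delFG2 and full-length it was H2-Oa (-0.27 to 0.031) and Ciita (-0.17 to 0.0098). Between delFG1 and empty vector it was H2-Oa (-0.066 to 0.21), H2-Aa (-0.32 to 0.31), H2-Ab1 (-0.022 to 0.75), H2-Eb1 (-0.26 to 0.31), Cd74 (-0.37 to 0.086) and Ciita (-0.20 to 0.079). Between delFG2 and empty vector it was H2-Oa (-0.0595 to 0.24), H2-Aa (-0.31 to 0.31), H2-Ab1 (-0.24 to 0.54), H2-Eb1 (-0.29 to 0.17), Cd74 (-0.43 to 0.035) and Ciita (-0.24 to 0.0061). Between delFG2 and delFG1 it was H2-Oa (-0.13 to 0.17), H2-DMb1/H2-DMb2 (-0.083 to 0.12), H2-Aa (-0.25 to 0.26), H2-Ab1 (-0.49 to 0.062), H2-Eb1 (-0.37 to 0.20), Cd74 (-0.25 to 0.15) and Ciita (-0.20 to 0.078). The cause of these changes was not tested.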
